A study of Mus musculus with 12 samples.

Results

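Integrins are the cell-surface receptors that hold cells to the extracellular matrix, and laminins, nidogens, perlecan, agrin, fibronectin and SPARC are proteins of that matrix, most of them of the basement membrane, the sheet on which endothelial cells lie. The genes described here were taken by name from the genes measured on the arrays, and the naming rule used no measured value, although earlier results of these data were known when it was chosen. They are every integrin alpha and beta gene and every laminin chain gene of standard symbol, together with Nid1, Nid2, Hspg2, Fn1, Agrn and Sparc. This gave 40 of 18193 genes, comprising 16 integrin alpha chains, 8 integrin beta chains, 10 laminin chains and 6 other glycoproteins. Each gene was read at 1 probe set, the one with the highest mean over the 12 arrays. The 40 genes have 86 probe sets, and 25 genes have more than 1.

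The arrays came from mouse embryos of embryonic day 8.0 on a mixed background of C57BL/6 and FVB, in 4 groups of 3 arrays. The labels name the line ER71 EYFP, so all groups carry the EYFP reporter, a yellow fluorescent protein. The groups cross the ER71 genotype, wildtype or mutant, with a sort of trypsin-digested cells into an EYFP positive and an EYFP negative fraction, called positive and negative cells here. ER71 is an older name of Etv2, a transcription factor with an ETS domain, needed for the first endothelial and blood cells. The labels state neither the sequences that drive EYFP, nor the change made in ER71, nor whether samples in a group are pools or separate embryos. So p-values reflect only the variation among these arrays, and much of it may be technical. In wild types it is not all technical, since both arrays numbered 1 differed from the others in sex-linked genes (values below).

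Integrins work as pairs of 1 alpha and 1 beta chain. Alpha chains set much of the choice of ligand, with receptors for collagen (alpha 1, alpha 2), laminin (alpha 3, alpha 6), fibronectin (alpha 5) and other matrix or cell-surface ligands, while the beta 1 chain pairs with most alpha chains and the beta 2 and beta 7 chains serve leukocytes. Laminins are trimers of an alpha, a beta and a gamma chain; nidogens and perlecan join the laminin network to that of collagen IV. In early embryos, endothelial cells lay down a basement membrane rich in laminin alpha 4, and the alpha 2b integrin chain (CD41) marks the first blood cells.

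Over the whole series, Etv2 had a log2 value of 10.70 to 11.36 in wild-type positive cells, 7.50 to 7.85 in wild-type negative cells and 7.24 to 7.49 on the 6 mutant arrays. Since the labels do not describe the mutation, a probe set outside the altered sequence would check nothing. Arrays of a group correlated at r = 0.986 to 0.993 across genes. Both wild-type arrays numbered 1 stood apart in sex-linked genes, with Eif2s3y (Y-linked) at 10.81 and 11.23 against 4.11 to 4.53 on the other 10 arrays and Xist at 10.33 and 8.19 against 13.36 to 13.98. Results that change without this pair of arrays are given both ways. Mutant positive array 1 stood apart in yolk sac endoderm genes, with Afp at 11.98 against 5.02 and 4.03. The signal at the 3′ end of the actin control minus that at the 5′ end, a sign of RNA quality, was 1.40 to 1.62 log2 in mutant positive cells, 1.54 to 3.05 in wild-type positive, 1.57 to 3.14 in wild-type negative and 1.87 to 2.72 in mutant negative cells.

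ETS factors bind DNA at sites with a GGAA core, and the promoters of some of these genes are shown because ER71 is an ETS factor and 4 of the genes (Itga1, Itga2b, Itga6 and Nid1) were lower in mutant than in wild-type positive cells. The sequences are the 250 bases before the RefSeq start of each gene in GRCm38.p6, written 5′ to 3′ on the gene's own strand, with matches to CCGGAA or AGGAAG on either strand in capitals. The same GGAA core cannot count for both motifs, because the base before it differs. Of 32851 promoter windows of this length, 12% hold CCGGAA, 29.5% hold AGGAAG and 38.2% hold either. Itga6 is not among the promoters used here. Itga1 lies at chr13:115101965-115102214 (minus strand), Itga2b at chr11:102469884-102470133 (minus), Nid1 at chr13:13437352-13437601 (plus) and Itga8, which was higher in mutant positive cells, at chr2:12301945-12302194 (minus).
Itga1: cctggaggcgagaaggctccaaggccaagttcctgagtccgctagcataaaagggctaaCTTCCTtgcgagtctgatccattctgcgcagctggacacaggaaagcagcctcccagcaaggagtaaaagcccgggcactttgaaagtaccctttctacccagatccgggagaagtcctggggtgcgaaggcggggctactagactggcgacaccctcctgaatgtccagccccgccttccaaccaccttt
Itga2b: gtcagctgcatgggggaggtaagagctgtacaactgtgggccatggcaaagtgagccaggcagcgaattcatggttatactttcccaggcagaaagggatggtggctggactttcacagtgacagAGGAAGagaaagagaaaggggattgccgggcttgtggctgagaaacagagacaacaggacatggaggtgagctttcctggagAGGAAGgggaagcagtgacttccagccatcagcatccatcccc
Nid1: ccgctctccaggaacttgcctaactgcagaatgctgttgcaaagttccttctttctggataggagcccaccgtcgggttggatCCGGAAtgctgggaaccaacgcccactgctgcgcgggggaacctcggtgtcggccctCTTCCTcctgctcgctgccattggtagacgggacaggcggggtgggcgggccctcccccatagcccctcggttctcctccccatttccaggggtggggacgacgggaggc
Itga8: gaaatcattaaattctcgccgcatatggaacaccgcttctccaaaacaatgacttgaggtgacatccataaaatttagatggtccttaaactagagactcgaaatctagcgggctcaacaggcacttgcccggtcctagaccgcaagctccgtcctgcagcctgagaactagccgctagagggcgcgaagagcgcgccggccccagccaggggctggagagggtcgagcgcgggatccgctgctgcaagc
Itga1 has AGGAAG on the opposite strand 191 bases before the start. Itga2b has AGGAAG on its own strand at 125 and at 43 bases before the start, and Nid1 has CCGGAA on its own strand at 167 and AGGAAG on the opposite strand at 110. Itga8 has no match to either motif in this window, although its sequence holds a GGAA core. The other genes that were higher are not shown. Among them, Lamb2 has AGGAAG on the opposite strand 19 bases before the start, and Agrn has it on the opposite strand at 215. Itgb5 has no match. Of the 40 genes, 26 are in the promoter table, with 30 windows, since Agrn, Itga3, Itgb6 and Lamb3 have 2 starts each. Of these windows, 13 hold either motif. Counted by gene, where 1 window with a match was enough, a match was found in 3 of 3 genes that were lower in mutant positive cells, in 2 of 4 that were higher and in 8 of 19 that did not pass the test. For Agrn it lay at the second of its starts, and the share over all promoters is per window. A match is a description of these letters and not a binding site.

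Differences are on the log2 scale of the deposited values, with limma's standard error (SE, n = 3 arrays per group), and a gene was past the threshold where the Benjamini-Hochberg adjusted p over all 18193 genes was under 0.05. In wild types, 10 of the 40 genes (25%) were higher and 1 (2.5%) was lower in positive than in negative cells, against 4.63% and 3.61% of all genes. In mutants, 10 of 40 were again higher and 1 was lower, against 3.07% and 2.29% of all genes. Between mutant and wild-type positive cells, 4 of 40 (10%) were higher and 4 (10%) were lower in mutants, against 4.23% and 3.74% of all genes. The test of whether the sort difference itself differed between genotypes, called the interaction here, found 1 gene with a larger value in mutants and 2 with a smaller one, against 0.973% and 1.61% of all genes. Between mutant and wild-type negative cells 0 of 40 genes passed in limma, against 0% of all genes in either direction. At an unadjusted p under 0.05, 1 of 40 (2.5%) and 949 of 18193 genes (5.22%) differed there, and the variants of the limma fit with a trended, robust prior or with a replicate block also called 0 of the 40. The gene with the unadjusted difference in negative cells was Itga9 (-0.62 ± 0.22, unadjusted p = 0.0166, limma adjusted p = 0.929).

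The median difference of the 40 genes was 0.11 log2 in the wild-type sort, against -0.02 for all genes, and 0.07 against -0.03 in the mutant sort. Between mutant and wild-type positive cells it was -0.03 against 0.01, between the negative cells 0.03 against 0.03, and for the interaction -0.08 against -0.02. Altogether 17 genes passed in at least 1 comparison (5 integrin alpha, 4 integrin beta, 4 laminin and 4 other glycoprotein genes), and 23 passed in none. These are bulk cells, so fewer cells of a type and less RNA per cell cannot be told apart in any of these differences.

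**Figure D1:**
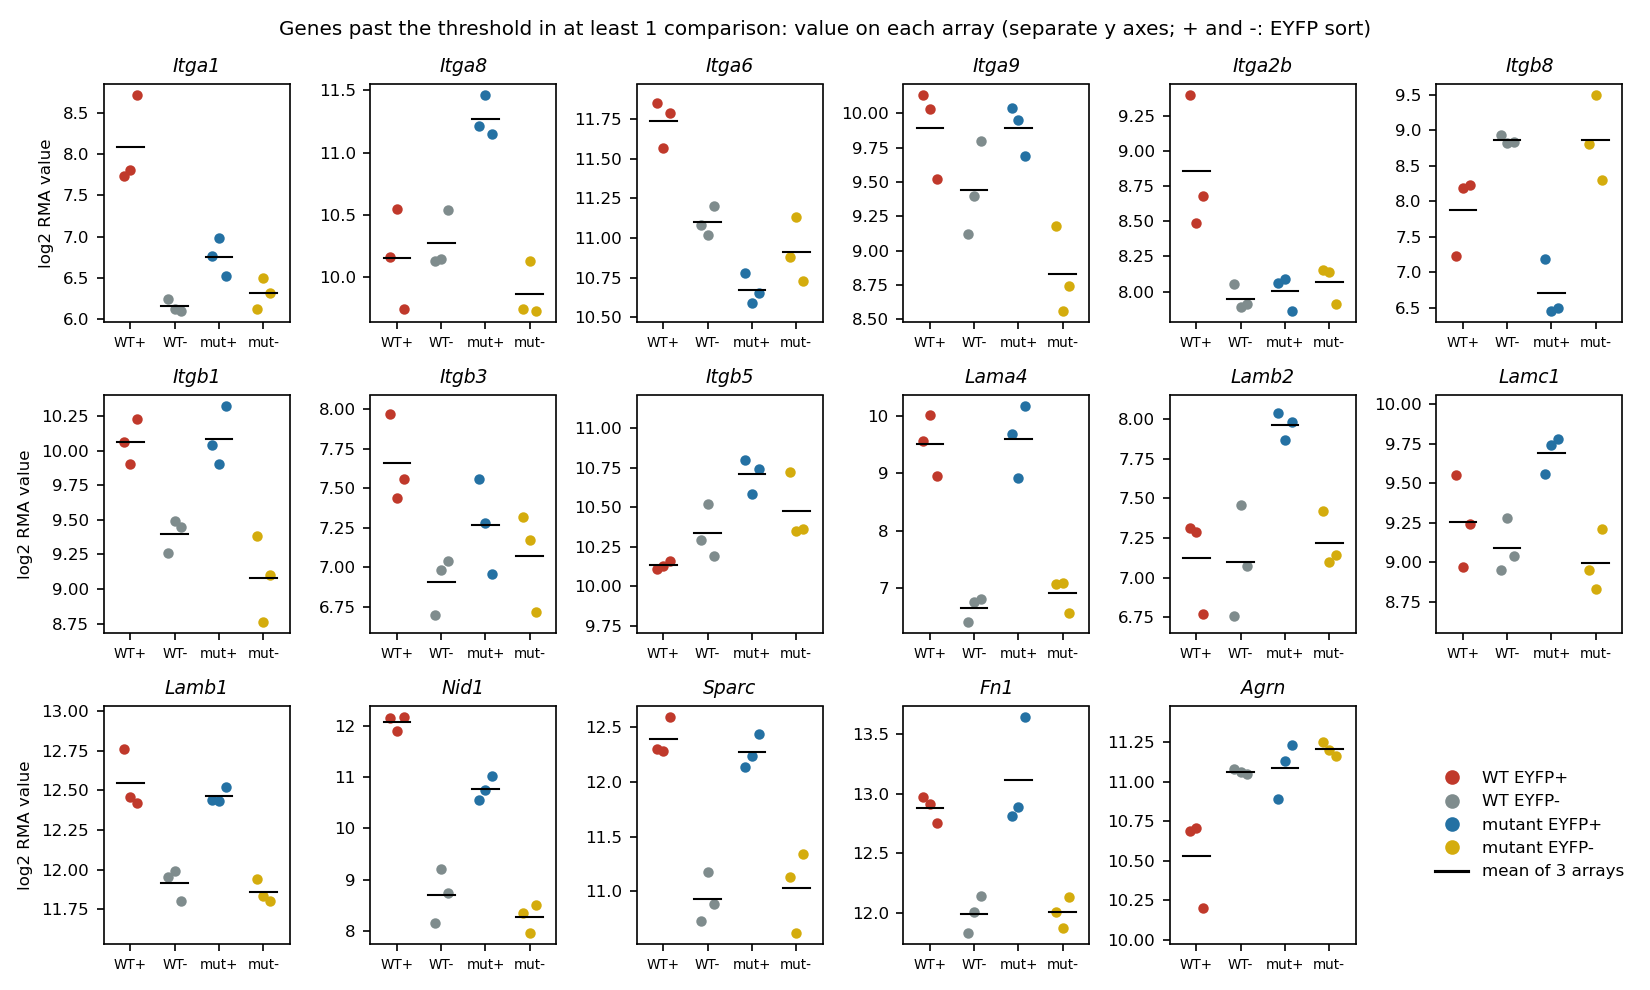
Value of each of the 17 genes that passed the threshold in at least 1 comparison, in log2 units on the y axis (a separate scale for each gene), on every array (points) of the 4 groups on the x axis, with the mean of 3 arrays as a line. Lama4, Nid1, Sparc, Fn1, Lamb1 and Itgb1 are high in both positive groups, Itga1, Itga6 and Itga2b in wild-type positive cells, and Itga8 and Lamb2 in mutant positive cells.

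Among integrin alpha chains, 3 of 16 rose with the sort in wild types (Itga1, Itga2b and Itga6), and the same 3 were lower in mutant than in wild-type positive cells. Itga1 encodes the collagen-binding alpha 1 chain. Its log2 values on arrays 1, 2 and 3 were 7.74, 7.81 and 8.71 in wild-type positive cells, 6.25, 6.13 and 6.10 in wild-type negative cells, 6.77, 6.99 and 6.52 in mutant positive cells and 6.13, 6.50 and 6.32 in mutant negative cells. The wild-type positive arrays lay above all others, and the mutant positive arrays lay between them and the negative arrays. Itga1 rose by 1.93 ± 0.23 log2 with the sort in wild types (3.81-fold; limma, adjusted p = 0.000233). Mutant minus wild-type positive cells gave -1.33 ± 0.23 (adjusted p = 0.00381), and its sort difference in mutants was 0.44 ± 0.23 (adjusted p = 0.4). The interaction was -1.49 ± 0.32 (adjusted p = 0.033). The dimmer probe set of Itga1 gave 1.43, -1.28 and -0.98 for the wild-type sort, the positive cells and the interaction, each past the threshold over all probe sets.

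Itga6 encodes the alpha 6 chain of laminin receptors. It had 11.85, 11.57 and 11.79 in wild-type positive cells, 11.08, 11.02 and 11.20 in wild-type negative cells, 10.78, 10.59 and 10.65 in mutant positive cells and 10.88, 11.13 and 10.73 in mutant negative cells. The wild-type positive arrays were the highest 3, and the mutant positive arrays overlapped the mutant negative ones. Itga6 rose by 0.64 ± 0.12 log2 with the sort in wild types (1.56-fold; limma, adjusted p = 0.00681) and mutant minus wild-type positive cells gave -1.06 ± 0.12 (2.09-fold; adjusted p = 0.000269). Its interaction was -0.87 ± 0.17 (adjusted p = 0.0206). The dimmer probe set of Itga6 gave 0.64 for the wild-type sort (adjusted p over all probe sets = 0.291) and -0.76 between positive cells (0.163). Without both wild-type arrays numbered 1, the wild-type sort difference was 0.57 (adjusted p = 0.0895), the interaction was -0.81 (adjusted p = 0.104), and the difference between positive cells stayed past the threshold.

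Itga2b encodes the alpha 2b chain, a receptor of platelets and early blood cells. Its values were 9.40, 8.49 and 8.68 in wild-type positive cells, 8.05, 7.89 and 7.91 in wild-type negative cells, 8.06, 8.09 and 7.86 in mutant positive cells and 8.15, 8.14 and 7.91 in mutant negative cells. Each wild-type positive array was higher than the other 9 arrays, which lay close together. The wild-type sort difference was 0.91 ± 0.19 log2 (1.88-fold; limma, adjusted p = 0.0134), and mutant minus wild-type positive cells gave -0.85 ± 0.19 (adjusted p = 0.0206). The wild-type call was lost without wild-type negative array 2 (adjusted p = 0.0546) or 3 (0.0513), and the call in positive cells without mutant positive array 3 (0.0688). Both calls were also lost in a fit of only the groups compared (0.0562 and 0.103). The interaction was -0.97 ± 0.28 (adjusted p = 0.112). It passed in a fit with the replicate number within each genotype as a block (adjusted p = 0.0372) and without wild-type positive array 2 (-1.16, adjusted p = 0.0391).

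The interaction calls of Itga1 and Itga6 depended on single arrays, and that of Itga8 on pairs of arrays. Itga1 missed the threshold when any of 7 single arrays was left out (wild-type negative 1, 2 or 3, mutant positive 1 or 3, mutant negative 2 or 3; limma adjusted p 0.0638 to 0.0873, difference -1.53 to -1.37). Itga6 missed it without wild-type positive array 3, wild-type negative array 1 or 2, or mutant positive array 2 (adjusted p 0.0507 to 0.0649), and also with the mean of all its probe sets (-0.78, 0.084). The Itga1 call was lost, too, with a block across genotypes (0.0517). Itga8, described next, kept its call without any single array and lost it without both wild-type arrays numbered 1 (1.60, adjusted p = 0.0545) or both mutant arrays numbered 1 (1.50, adjusted p = 0.0734). Without both mutant arrays numbered 1, Itga1 was at -1.59 (adjusted p = 0.0895) and Itga6 at -0.94 (0.0613).

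Itga8 was the integrin alpha chain that was higher in mutant positive cells. Its product pairs with beta 1 and binds nephronectin and other ligands. Its values were 10.16, 10.55 and 9.75 in wild-type positive cells, 10.13, 10.15 and 10.54 in wild-type negative cells, 11.21, 11.46 and 11.15 in mutant positive cells and 9.75, 10.13 and 9.73 in mutant negative cells. The 3 mutant positive arrays were above the other 9, which overlapped. Itga8 was higher by 1.12 ± 0.20 log2 in mutant than in wild-type positive cells (2.17-fold; limma, adjusted p = 0.00528) and by 1.40 ± 0.20 in mutant positive than in mutant negative cells (adjusted p = 0.00184). The sort difference in wild types was -0.12 ± 0.20 (adjusted p = 0.843), and the interaction was 1.53 ± 0.28 (adjusted p = 0.015). A dim probe set of the gene (mean 5.67) gave 0.63 between positive cells (adjusted p over all probe sets = 0.111).

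Itga9, whose product pairs with beta 1 and binds tenascin and VCAM1, rose with the sort in mutants. Its values were 10.04, 9.95 and 9.69 in mutant positive cells, 9.18, 8.56 and 8.74 in mutant negative cells, 10.13, 10.03 and 9.52 in wild-type positive cells, with 9.12, 9.40 and 9.80 in wild-type negative cells. The mutant groups did not overlap, and the wild-type groups did. The mutant sort difference was 1.06 ± 0.22 log2 (limma, adjusted p = 0.0152), that in wild types was 0.45 ± 0.22 (adjusted p = 0.304), and the interaction was 0.61 (adjusted p = 0.476). The call was lost without either of mutant positive arrays 1 and 2 or of mutant negative arrays 2 and 3 (adjusted p 0.0531 to 0.0654). Another probe set of the gene rose by 1.61 in the mutant sort (adjusted p over all probe sets = 0.00605). The dimmest one (mean 7.19) gave 0.33 there and did not pass (0.356).

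The other 11 alpha chains did not pass in any comparison of the fit used here. With the mean of all probe sets of each gene, Itga4 was higher in positive cells of both genotypes (limma adjusted p = 0.032 in wild types and 0.0244 in mutants). Itgav, the alpha chain of the vitronectin receptors, was bright (group means 10.74 to 11.53) and gave 0.61 ± 0.27 log2 in the wild-type sort (limma adjusted p = 0.252) and -0.58 ± 0.27 between positive cells (adjusted p = 0.245). Itga3, a laminin receptor chain, gave 0.40 ± 0.16 (adjusted p = 0.177) and -0.48 ± 0.16 (adjusted p = 0.0875). The latter passed with a replicate block across genotypes (0.0488). Itgav and Itga3 thus had the same signs as Itga1, Itga6 and Itga2b, with values that did not pass in the fit used here. Itga5, the fibronectin receptor chain, lay between 6.99 and 7.55 on all 12 arrays, with differences of 0.03 to 0.13. The difference of Itga5 between positive cells was 0.06.

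Of the 8 integrin beta chains, Itgb1 and Itgb3 rose with the sort in wild types. Itgb1 encodes beta 1, the partner of most alpha chains. It had 10.06, 9.90 and 10.23 in wild-type positive cells, 9.26, 9.49 and 9.45 in wild-type negative cells, 10.04, 9.90 and 10.32 in mutant positive cells and 9.38, 8.76 and 9.10 in mutant negative cells. The positive arrays of both genotypes covered nearly the same range, above all 6 negative arrays. The sort difference was 0.66 ± 0.16 log2 in wild types (limma, adjusted p = 0.0285) and 1.01 ± 0.16 in mutants (2.01-fold; adjusted p = 0.00392). Mutant and wild-type positive cells differed by 0.02, with a 95% interval of -0.34 to 0.38. The wild-type call did not survive leaving out wild-type positive array 1 or 3 or any wild-type negative array (adjusted p 0.0614 to 0.111), or both wild-type arrays numbered 1 (0.60, adjusted p = 0.209). A probe set of nearly equal mean (9.58) passed in both genotypes, at 0.50 and 0.70. A dimmer one (mean 7.28) gave 0.48 in wild types and 0.42 in mutants (limma adjusted p over all probe sets = 0.0263 and 0.0697). The dimmest ones (means 4.38 to 4.64) passed in neither genotype.

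Itgb3, the beta chain that pairs with alpha 2b or alpha v, had 7.97, 7.44 and 7.56 in wild-type positive cells, 6.70, 6.98 and 7.04 in wild-type negative cells, 7.56, 7.28 and 6.96 in mutant positive cells and 7.32, 7.17 and 6.72 in mutant negative cells. The wild-type groups did not overlap, whereas the mutant groups did. The wild-type sort difference was 0.75 ± 0.20 log2 (limma, adjusted p = 0.0421), the mutant one was 0.20 (adjusted p = 0.753), and the interaction was -0.55 (adjusted p = 0.489). The wild-type call did not survive leaving out wild-type positive array 1 or 3, any wild-type negative array, array 2 of the mutant positive or of the mutant negative cells (adjusted p 0.054 to 0.156), and was at 0.361 without both wild-type arrays numbered 1. The dimmer probe set of Itgb3 (mean 6.18) gave 0.04 in the wild-type sort (adjusted p over all probe sets = 0.924).

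Itgb5, which pairs with alpha v in a vitronectin receptor, was higher in mutant positive cells. It had 10.11, 10.13 and 10.16 in wild-type positive cells, 10.29, 10.52 and 10.19 in wild-type negative cells, 10.80, 10.58 and 10.74 in mutant positive cells and 10.72, 10.35 and 10.36 in mutant negative cells. The positive cells of the 2 genotypes did not overlap. The difference was 0.57 ± 0.12 log2 (1.49-fold; limma, adjusted p = 0.0165), and it missed the threshold without mutant positive array 1 (0.0622) or 3 (0.0513) and without both wild-type arrays numbered 1 (0.0713). The other 3 probe sets of Itgb5 gave larger differences between positive cells, 1.54 ± 0.16, 1.33 ± 0.18 and 1.26 ± 0.19 (adjusted p over all probe sets 0.000184 to 0.00239). At the probe set with 1.54 the values were 9.44, 9.08 and 8.89 in wild-type positive cells, against 10.67, 10.51 and 10.84 in mutant positive cells. That probe set was also lower in the wild-type sort (-0.68, adjusted p over all probe sets = 0.0302) and passed for the interaction (1.24, 0.0186), where the brightest one did not pass (-0.20 and 0.43).

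Itgb8, the beta chain of a receptor that activates latent TGF-beta, was the integrin that was lower in positive cells of the mutants. Its values were 7.18, 6.45 and 6.50 in mutant positive cells, 8.81, 9.49 and 8.30 in mutant negative cells, 7.23, 8.18 and 8.22 in wild-type positive cells, with 8.93, 8.82 and 8.83 in wild-type negative cells. Positive arrays were below negative arrays in both genotypes, and the mutant positive arrays were the lowest 3. The mutant sort difference was -2.16 ± 0.32 log2 (4.46-fold; limma, adjusted p = 0.00245) and the wild-type one was -0.98 ± 0.32 (adjusted p = 0.101), with an interaction of -1.17 (adjusted p = 0.294). Mutant and wild-type positive cells differed by -1.17 ± 0.32 (adjusted p = 0.0503). That difference passed without wild-type positive array 1 (-1.49, adjusted p = 0.0161), mutant positive array 1 (0.0387), mutant negative array 2 (0.0276) or mutant negative array 3 (0.0365), and without both wild-type arrays numbered 1 (0.0294). It also passed with the mean of all probe sets of each gene (0.0441), with dim genes left out (0.0418) and with a trended, robust prior (0.0442). In the 2 sort comparisons, genes of neural ectoderm (Sox1, Sox2, Pax6 and Otx2) were lower in positive cells, 4 of 4 in mutants and 3 of 4 in wild types. Their mean was 6.58 to 8.18 on mutant positive arrays and 10.55 to 10.82 on mutant negative arrays, and 6.98 to 8.64 and 10.17 to 10.62 in wild types. Between mutant and wild-type positive cells 0 of these 4 passed in limma, and 2 had an unadjusted p under 0.05. Of those 2, Sox2 was lower in mutants (group means 8.21 against 9.71) and Pax6 was higher (6.78 against 6.28). Of 6 epithelial markers, Cdh1, Cldn6, Cldn7 and Epcam were lower in positive cells of both genotypes, whereas in mutants Krt8 was higher (1.13 ± 0.18, limma adjusted p = 0.00291) and Krt18 gave 1.00 ± 0.30 (0.088). The part of these cell types in the Itgb8 difference was not tested.

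The integrin chains of leukocytes gave low and even values. Itgal, Itgam, Itgax and Itgae (alpha chains) and Itgb2 and Itgb7 (their beta partners) had group means of 5.08 to 6.30, and their differences lay between -0.22 and 0.23 log2 in the 5 comparisons, with 0 past the threshold in limma and 0 at an unadjusted p under 0.05. Itgam was below the 25th percentile of the array (5.62 to 5.69) on all 12 arrays and Itgb2 on 11. Macrophage and leukocyte markers (Ptprc, Csf1r, Cd68, Tyrobp, Fcer1g and Spi1) also gave 0 of 6 past the threshold in every comparison, and at an unadjusted p under 0.05 Csf1r alone, in the mutant sort, with array means of 6.30 to 6.57. Itgb4 and Itgb6, integrin chains of epithelia, and Lama3 and Lamb3, chains of an epithelial laminin, gave differences between -0.27 and 0.20, with 0 past the threshold and 0 at an unadjusted p under 0.05 in limma at the probe sets used. A dimmer probe set of Lama3 (mean 6.10) was 0.46 higher in the wild-type sort (adjusted p over all probe sets = 0.0236).

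**Figure D2:**
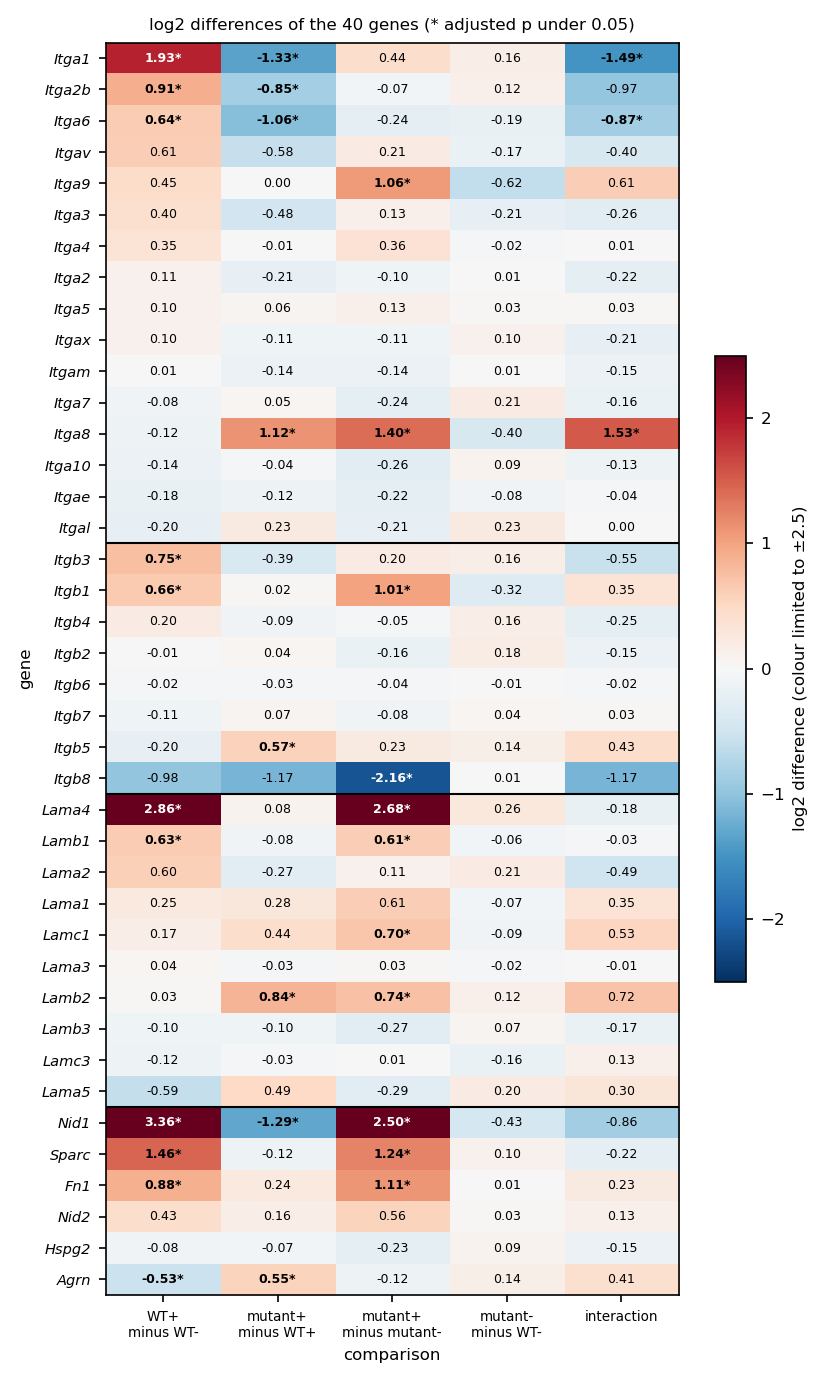
The log2 difference of each of the 40 genes (rows, grouped as integrin alpha, integrin beta, laminin and other glycoprotein and ordered by the wild-type sort difference) in the 5 comparisons (columns), with colour from blue (lower) to red (higher) and an asterisk for an adjusted p under 0.05. Nid1 at 3.36 and Lama4 at 2.86 head the wild-type sort, and the column of mutant against wild-type negative cells has no asterisk.

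Among the 10 laminin chains, 2 rose with the sort in wild types (Lama4 and Lamb1) and 4 in mutants (those 2, Lamb2 and Lamc1). Lama4 encodes the alpha 4 chain of endothelial basement membranes. Its values were 9.57, 10.01 and 8.96 in wild-type positive cells, 6.40, 6.75 and 6.80 in wild-type negative cells, 9.69, 8.91 and 10.17 in mutant positive cells and 7.07, 7.09 and 6.56 in mutant negative cells. The positive arrays of both genotypes shared 1 range, far above all negative arrays. The sort difference was 2.86 ± 0.32 log2 in wild types (7.27-fold; limma, adjusted p = 0.00016) and 2.68 ± 0.32 in mutants (6.42-fold; adjusted p = 0.000691). Mutant and wild-type positive cells differed by 0.08, with a 95% interval of -0.62 to 0.78, and the interaction was -0.18, with an interval of -1.17 to 0.81. A dim probe set (mean 5.50) rose by 0.76 in wild types (adjusted p over all probe sets = 0.0331) and gave 0.57 in mutants (0.16).

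Lamb1 encodes the beta 1 chain found in most laminins of the early embryo. It had 12.76, 12.46 and 12.42 in wild-type positive cells, 11.95, 11.99 and 11.80 in wild-type negative cells, 12.44, 12.43 and 12.52 in mutant positive cells and 11.94, 11.83 and 11.80 in mutant negative cells. The 6 positive arrays were above the 6 negative arrays. The sort difference was 0.63 ± 0.11 log2 in wild types (1.55-fold; limma, adjusted p = 0.00337) and 0.61 ± 0.11 in mutants (1.52-fold; adjusted p = 0.00663). Positive cells of the genotypes differed by -0.08, with a 95% interval of -0.32 to 0.15. A second probe set of Lamb1 (mean 9.48) gave 0.81 in the mutant sort (limma adjusted p over all probe sets = 0.0207). The dimmer ones (means 6.82 and 6.44) gave -0.08 and 0.53 there and did not pass (0.969 and 0.197).

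Lamb2 and Lamc1, the beta 2 and gamma 1 chains, were high in mutant positive cells. Lamb2 had 8.04, 7.87 and 7.98 in mutant positive cells, 7.42, 7.10 and 7.14 in mutant negative cells, 7.31, 7.29 and 6.77 in wild-type positive cells, with 6.76, 7.46 and 7.07 in wild-type negative cells, so the mutant positive arrays were the highest 3. It was higher by 0.84 ± 0.19 log2 in mutant than in wild-type positive cells (1.79-fold; limma, adjusted p = 0.0182) and by 0.74 ± 0.19 in the mutant sort (adjusted p = 0.0422). The first call did not survive leaving out any 1 of wild-type positive array 3 and mutant positive arrays 1 and 3 (adjusted p 0.0518 to 0.0607). The second missed the threshold when leaving out wild-type positive array 2, wild-type negative array 3, any mutant positive array, or either of mutant negative arrays 2 and 3 (0.0503 to 0.139), and was at 0.121 without both mutant arrays numbered 1.

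Lamc1 had 9.56, 9.74 and 9.78 in mutant positive cells, 8.95, 8.83 and 9.21 in mutant negative cells, 9.55, 8.97 and 9.24 in wild-type positive cells, with 8.95, 9.28 and 9.04 in wild-type negative cells. Mutant positive and wild-type positive arrays met at 9.55 and 9.56. Its mutant sort difference was 0.70 ± 0.16 log2 (limma, adjusted p = 0.0255), lost without mutant positive array 2 or 3 or mutant negative array 1 or 2 (0.0756 to 0.0997) and without both mutant arrays numbered 1 (0.102). Between positive cells it differed by 0.44 ± 0.16 (adjusted p = 0.125), which passed without wild-type positive array 1 (0.59, 0.0483). The wild-type sort difference was 0.17 (adjusted p = 0.679), and neither interaction passed (0.72 for Lamb2 and 0.53 for Lamc1, adjusted p = 0.256 and 0.355). The dimmer probe set of Lamc1 (mean 6.80) gave 0.08 in the mutant sort (adjusted p over all probe sets = 0.912).

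The other 6 laminin chains did not pass. Lama1, the alpha 1 chain of the first embryonic basement membranes, gave 0.61 ± 0.18 log2 in the mutant sort (limma, adjusted p = 0.0956). With a block for the paired samples its adjusted p was 0.0194, and without mutant positive array 2 it was 0.0456. Lama5, the alpha 5 chain, was the laminin gene with the lowest sort value in wild types (-0.59 ± 0.21, adjusted p = 0.131), and passed only with that block (0.0306). Lama2, the alpha 2 chain of muscle laminins, gave 0.60 ± 0.26 (adjusted p = 0.234), with 7.69 on wild-type positive array 1 against 6.88 and 6.47 on the others. Lamc3 stayed between -0.16 and 0.13 in every comparison.

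Of the 6 other glycoproteins, Nid1, Sparc and Fn1 rose with the sort in both genotypes. Nid1 encodes nidogen 1, which links laminin to collagen IV. Its values were 12.14, 11.90 and 12.16 in wild-type positive cells, 8.16, 9.20 and 8.75 in wild-type negative cells, 10.55, 10.75 and 11.02 in mutant positive cells and 8.36, 7.96 and 8.50 in mutant negative cells. The mutant positive arrays lay below every wild-type positive array and above every negative array. The sort difference was 3.36 ± 0.24 log2 in wild types (10.3-fold; limma, adjusted p = 4.22e-06) and 2.50 ± 0.24 in mutants (5.67-fold; adjusted p = 0.000192). Mutant minus wild-type positive cells gave -1.29 ± 0.24 (2.44-fold; adjusted p = 0.00613). The interaction was -0.86 ± 0.33 (adjusted p = 0.293), so a smaller sort difference in mutants did not pass the test. It passed where all probe sets of a gene were averaged (adjusted p = 0.00289). The other probe sets of Nid1 gave 2.42 and 1.84 in the wild-type sort, 1.30 and 0.36 in the mutant sort and -1.12 and -1.40 between positive cells. All of these passed except the 0.36 (adjusted p over all probe sets = 0.733), which came from the dimmest one (mean 4.95).

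Sparc encodes a collagen-binding matrix protein that loosens cell adhesion. It had 12.30, 12.28 and 12.59 in wild-type positive cells, 10.73, 11.18 and 10.89 in wild-type negative cells, 12.14, 12.24 and 12.44 in mutant positive cells and 11.13, 10.62 and 11.34 in mutant negative cells. Positive and negative arrays did not overlap in either genotype. The sort difference was 1.46 ± 0.19 log2 in wild types (2.75-fold; limma, adjusted p = 0.00046) and 1.24 ± 0.19 in mutants (2.36-fold; adjusted p = 0.0024). Positive cells differed by -0.12 between genotypes, with a 95% interval of -0.53 to 0.29. A second probe set of Sparc (mean 10.19) gave 1.37 in the mutant sort (limma adjusted p over all probe sets = 0.00737). The dimmest one (mean 7.29) gave 0.09 there and did not pass (0.864).

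Fn1 encodes fibronectin. It had 12.97, 12.91 and 12.75 in wild-type positive cells, 11.83, 12.01 and 12.14 in wild-type negative cells, 12.81, 12.89 and 13.64 in mutant positive cells and 12.01, 11.87 and 12.13 in mutant negative cells. All 6 positive arrays were above all 6 negative arrays, and 1 mutant positive array, at 13.64, was above the rest. The sort difference was 0.88 ± 0.19 log2 in wild types (1.84-fold; limma, adjusted p = 0.0146) and 1.11 ± 0.19 in mutants (2.16-fold; adjusted p = 0.00571). The wild-type call did not survive leaving out wild-type positive array 1 (0.0537), wild-type negative array 1 (0.0655) or both (0.76, adjusted p = 0.162). Positive cells differed by 0.24, with a 95% interval of -0.19 to 0.66. The dimmer probe set of Fn1 (mean 9.36) gave 0.96 in wild types and 1.66 in mutants, and neither passed (adjusted p over all probe sets = 0.278 and 0.059).

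Agrn, which encodes the heparan sulphate proteoglycan agrin, was the 1 gene of the 40 that was lower in wild-type positive cells. It had 10.69, 10.71 and 10.20 there, against 11.08, 11.06 and 11.05 in wild-type negative cells, 10.89, 11.13 and 11.23 in mutant positive cells and 11.25, 11.20 and 11.16 in mutant negative cells. Wild-type positive arrays were the lowest 3. The differences were -0.53 ± 0.14 log2 in the wild-type sort (limma, adjusted p = 0.0378) and 0.55 ± 0.14 between mutant and wild-type positive cells (adjusted p = 0.0325). The first missed the threshold when leaving out wild-type positive array 3 (-0.36, adjusted p = 0.0962), any wild-type negative array (0.0982 to 0.11), mutant positive array 2 or any mutant negative array (0.0511 to 0.052), and without both wild-type arrays numbered 1 (0.11). The second missed the threshold when leaving out wild-type positive array 3 (0.38, 0.0785), wild-type negative array 2 (0.051), mutant positive array 2 (0.0865) or 3 (0.106), and without both wild-type arrays numbered 1 (0.0562). A dim probe set of Agrn (mean 5.83) gave 0.18 between positive cells (limma adjusted p over all probe sets = 0.467).

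Nid2, the other nidogen, did not pass, with 0.43 ± 0.15 log2 in the wild-type sort (limma, adjusted p = 0.123) and 0.56 ± 0.15 in the mutant sort (adjusted p = 0.0551). The mutant value passed with a block for the paired samples (0.0284) and without mutant negative array 1 (0.69, 0.0325). Hspg2, which encodes perlecan, was nearly level at its brightest probe set, with 10.21 to 10.60 over all 12 arrays and differences of -0.08 in the wild-type sort and -0.07 between positive cells. Its dimmer probe set read otherwise. There the values were 8.87, 8.62 and 8.51 in wild-type positive cells, 7.60, 7.53 and 7.28 in wild-type negative cells, 7.51, 7.67 and 7.66 in mutant positive cells and 7.40, 7.21 and 7.34 in mutant negative cells. The wild-type positive arrays stood above the other 9, with a sort difference of 1.19 ± 0.12 (limma adjusted p over all probe sets = 0.000148), a difference between positive cells of -1.05 ± 0.12 (0.000456) and an interaction of -0.90 ± 0.17 (0.026). Which of the probe sets reads perlecan mRNA more faithfully was not tested.

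**Figure D3:**
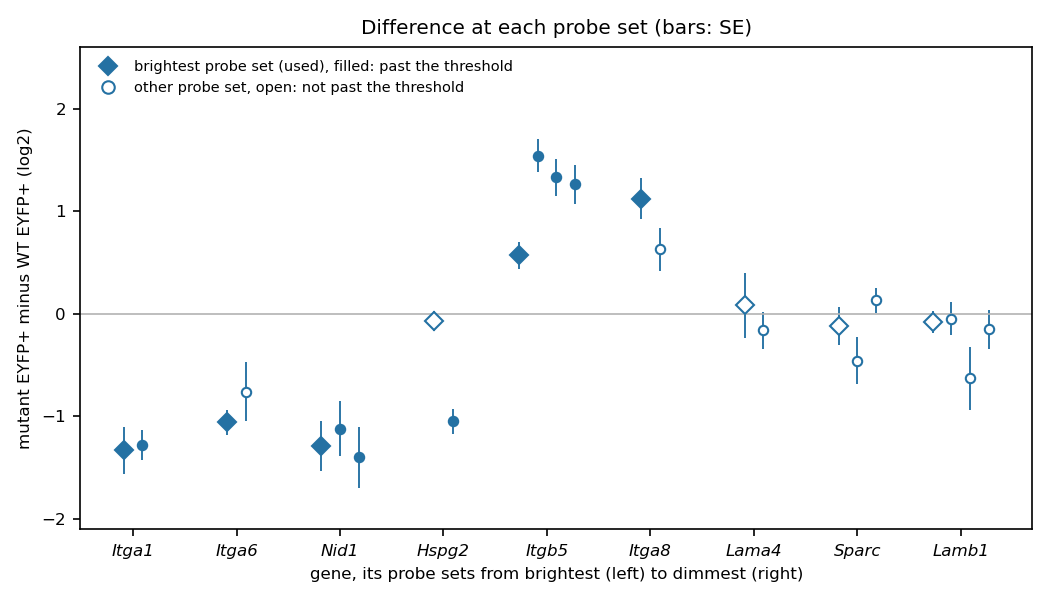
Difference between mutant and wild-type positive cells (y axis, log2, bars SE) at every probe set of 9 genes (x axis), chosen after their values were seen, with diamonds for the brightest probe set, circles for the others and filled symbols where the adjusted p was under 0.05. The probe sets of Itga1, Nid1 and Itgb5 pass alike, whereas those of Hspg2 split between -0.07 and -1.05.

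The comparisons of positive with negative cells in wild types and in mutants share no array. Both were taken from 1 model, however, with a spread estimated from all 12 arrays, so their calls are not independent. In both, 6 genes were higher in positive cells: Fn1, Itgb1, Lama4, Lamb1, Nid1 and Sparc. These are 60% of the 10 called in wild types and 60% of the 10 called in mutants. Over all genes, 171 were higher in both, which is 20.3% of the 843 called in wild types and 30.6% of the 558 called in mutants. In each genotype 1 of the 40 (2.5%) was called lower, Agrn in wild types and Itgb8 in mutants. Over all genes the shares were 3.61% and 2.29% (656 and 417 genes), and 216 genes were lower in both. Of the 6, Nid1 was the one that was lower in mutant than in wild-type positive cells.

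**Figure D4:**
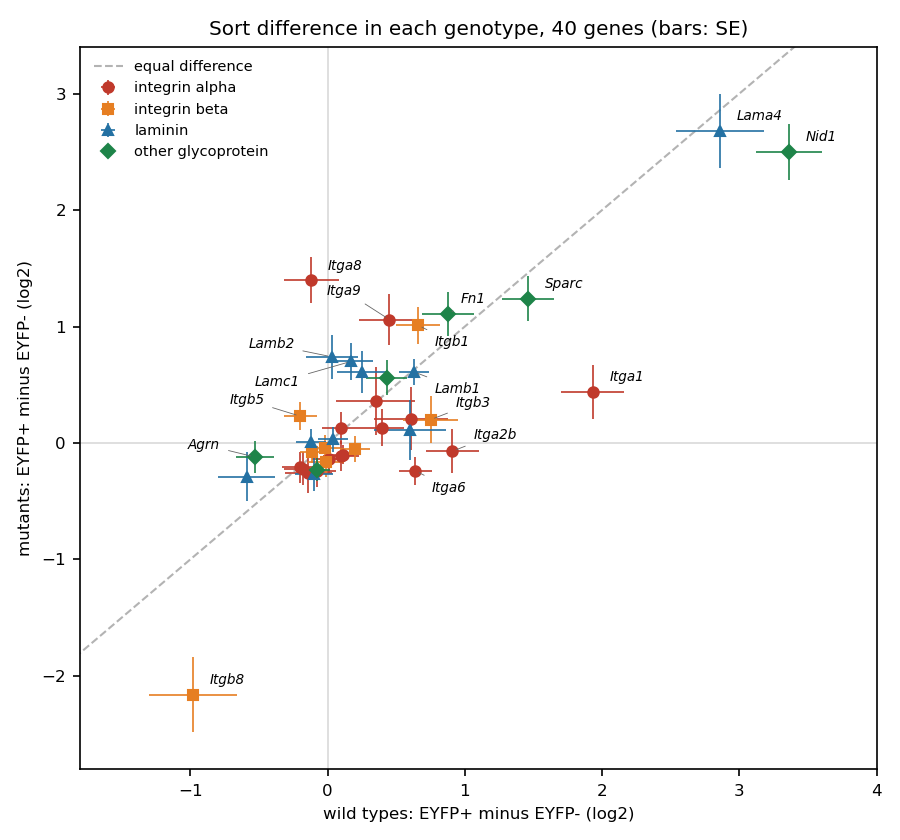
Sort difference (positive minus negative cells, log2) of the 40 genes in wild types (x axis) and in mutants (y axis), with bars for SE, a symbol for each family and a dashed line of equal difference. Lama4, Nid1, Sparc, Fn1, Itgb1 and Lamb1 lie to the upper right, Itga1, Itga2b and Itga6 lie to the right near 0 on the mutant axis, and Itga8 lies at -0.12 on the wild-type axis and 1.40 on the mutant axis.

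Proteins that work with integrins inside the cell were read from a list of 19 adhesion adaptors, of which 17 were measured. In the wild-type sort 5 rose. Pxn (paxillin) rose by 0.94 ± 0.12 log2 (limma, adjusted p = 0.000462), Bcar1, a scaffold of focal adhesions, by 0.53 ± 0.10 (0.0079), and Fermt3 (kindlin 3), which activates integrins in blood cells and endothelium, by 2.39 ± 0.37 (0.0019). Fermt3 had 8.10, 9.76 and 9.89 in wild-type positive cells, and 9 arrays of the other groups had 6.25 to 6.96. In mutant against wild-type positive cells, Fermt3 (-2.78 ± 0.37, adjusted p = 0.000806) and Pxn (-0.49 ± 0.12, 0.0283) were lower and Tln2 (talin 2) was higher (0.97 ± 0.23, 0.0259). In the mutant sort Ilk (integrin-linked kinase) alone of the 17 passed, at 0.80 ± 0.14 (0.00531). The interaction of Fermt3 was -2.43 ± 0.53 (0.0344). The median of the list was 0.36 in the wild-type sort and 0.43 in the mutant sort.

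Of 19 basement membrane partners and laminin receptors, all measured, 3 rose and 2 fell in the wild-type sort. Col4a1, Col4a2 and Col18a1, chains of basement membrane collagens, rose by 0.98 ± 0.18, 1.07 ± 0.23 and 0.66 ± 0.16 log2 (limma adjusted p = 0.0047, 0.0125 and 0.0278). Smoc1, a SPARC-related protein, fell by 0.99 ± 0.19 (0.00726) and Sdc4, a syndecan, fell by 1.23 ± 0.33 (0.0437). In mutant against wild-type positive cells 3 were higher: Smoc2 (1.68 ± 0.29, 0.00389), Smoc1 (0.97 ± 0.19, 0.00953) and Sdc2 (0.59 ± 0.16, 0.0416). At an unadjusted p under 0.05 in limma, 11 of the 19 differed there, against 22.3% of all genes. Besides those 3, Dag1, Fbln1 and Sdc4 were higher, and Col4a1, Col4a2, Col4a4, Col15a1 and Col18a1 were lower. The genes beyond those 3 did not pass the adjusted threshold. Group means in wild-type and mutant positive cells were 13.09 and 12.49 for Col4a1, 9.42 and 8.90 for Col4a2 and 11.52 and 11.05 for Col18a1. Smoc2 alone passed in the mutant sort, at 1.86 ± 0.29 (0.00282), and 0 of 19 passed for the interaction in limma (4 at an unadjusted p under 0.05).

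Other integrin ligands moved in both directions, with 19 of 22 listed genes measured. In the wild-type sort 4 rose and 2 fell. Icam2, an adhesion molecule of endothelium, had 10.14, 10.30 and 10.89 in wild-type positive cells, against 5.45 to 5.61 on all other arrays, a rise of 4.91 ± 0.16 log2 (limma, adjusted p = 6.3e-09). Emilin1, a ligand of alpha 4 and alpha 9 integrins, rose by 1.87 ± 0.28 (0.00136) and Icam1 by 1.66 ± 0.27 (0.00237). Vtn (vitronectin) fell by 0.80 ± 0.18 (0.0182) and Fgb, a fibrinogen chain, fell by 1.14 ± 0.30 (0.0408).

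In mutant against wild-type positive cells 3 of the 19 ligands were lower and 3 were higher. Icam2 (-4.91 ± 0.16, limma adjusted p = 7.42e-09), Icam1 (-1.99 ± 0.27, 0.00084) and Edil3 (-1.41 ± 0.34, 0.0272), a ligand of alpha v integrins in endothelium, were lower. Vcam1, the ligand of alpha 4 and alpha 9 integrins, was higher (1.61 ± 0.23, 0.00125), as were Tgfbi (1.80 ± 0.27, 0.00188) and Tnc, tenascin C (0.90 ± 0.22, 0.0319). Vcam1 had 8.70, 9.25 and 9.72 in mutant positive cells, 6.43, 6.23 and 6.82 in mutant negative cells, 7.41, 7.65 and 7.76 in wild-type positive cells, with 7.55, 7.80 and 7.68 in wild-type negative cells. The mutant positive arrays were the highest 3 and the mutant negative arrays the lowest 3. In the mutant sort 4 rose, among them Vcam1 (2.72 ± 0.23, 0.000105), Tgfbi (2.59 ± 0.27, 0.000352) and Tnc (1.68 ± 0.22, 0.00133). The interaction passed for Vcam1, Tgfbi and Tnc (2.79, 2.43 and 1.78) and, with the opposite sign, for Icam2 and Icam1 (-4.90 and -2.10). In mutant against wild-type negative cells 0 genes of the 3 lists passed in limma, with 0 adaptors, 1 partner and 3 ligands at an unadjusted p under 0.05.

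Markers of cell types moved with these groups. Endothelial genes (Cdh5, Pecam1, Tek, Kdr, Cldn5 and Esam) rose in 6 of 6 in the wild-type sort, and 5 of 6 were lower in mutant than in wild-type positive cells. Their array means were 10.28 to 10.56 in wild-type positive cells, 7.72 to 7.95 in mutant positive cells and 6.80 to 7.02 in negative cells of both genotypes. In the mutant sort 2 of 6 were higher, Kdr (2.57 ± 0.16, limma adjusted p = 4.62e-05) and Tek (2.04 ± 0.28, 0.00136). Group means in mutant positive and mutant negative cells were 11.79 and 9.22 for Kdr and 9.66 and 7.62 for Tek. They were 4.98 and 4.89 for Cdh5, 6.04 and 5.99 for Pecam1 and 7.55 and 7.48 for Esam. For Cldn5 they were 7.01 and 6.62, a difference at an unadjusted p under 0.05 in limma that did not pass the threshold. The 10 genes that rose in the mutant sort were measured on these arrays, and the part of cells with Kdr and Tek in that rise was not tested. Primitive erythroid genes gave 4 of 5 higher in the wild-type sort and 5 of 5 lower in mutant positive cells (12.33 to 12.99 against 6.05 to 6.17). Negative arrays differed among themselves in these genes, with Hbb-y, an embryonic globin, at 10.80, 5.59 and 11.94 in wild-type and 5.01, 11.55 and 4.71 in mutant negative cells. Itga1, Itga2b, Itga6 and Nid1 moved in the same directions as these lists, whose part in the differences was not tested. Of 4 megakaryocyte and platelet markers 1 rose in the wild-type sort, Pf4 (1.01 ± 0.27, limma adjusted p = 0.0396), while the list's array means were 6.29 to 6.66 in wild-type positive cells and 6.19 to 6.33 in the other groups.

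Cardiac genes (Tnnt2, Myl7, Myl4, Actc1 and Nkx2-5) were higher in 5 of 5 and mesenchyme genes (Pdgfra, Prrx1, Twist1 and Hand2) in 4 of 4, both in mutant against wild-type positive cells and in the mutant sort. Cardiac array means were 11.76 to 12.31 in mutant positive cells against 9.47 to 10.50 in wild-type positive and 9.91 to 10.62 in mutant negative cells, and mesenchyme means were 11.31 to 11.66 against 9.90 to 9.96 and 10.19 to 10.27. The higher Itga8, Itgb5 and Lamb2 values of mutant positive cells were measured in the same arrays, and the part of these cell types in them was not tested. Genes of parietal endoderm, which makes much laminin and collagen IV, had array means of 8.76 to 8.82 in wild-type positive, 8.42 to 8.92 in wild-type negative, 8.83 to 9.14 in mutant positive and 8.10 to 8.44 in mutant negative cells. Of its 3 markers, Thbd was higher and Pth1r lower in the wild-type sort, and the reverse held between mutant and wild-type positive cells. Thbd thus moved in the directions of the endothelial genes in both, with group means of 9.11 in wild-type positive and 7.71 in mutant positive cells. The list means therefore join genes that moved in opposite directions. In the mutant sort, where 4 laminin chains rose, Pth1r (0.91 ± 0.15, limma adjusted p = 0.00364) and Thbd (0.62 ± 0.13, 0.0185) were higher and Plat gave 0.85 ± 0.27 (0.122). The part of parietal endoderm in the laminin differences was not tested. Genes of yolk sac endoderm had means of 5.86 to 6.19 in wild-type positive cells, against 6.12 to 9.81 in mutant positive cells. Of these genes, 0 of 6 differed past the limma threshold and 2 at an unadjusted p under 0.05. Epithelial genes had 8.06 to 8.31 and 8.38 to 9.41 in those groups. Of these 6, Krt8 and Krt18 were higher in mutant positive cells past the limma threshold, and 4 did not pass. Group means in wild-type and mutant positive cells were 11.95 and 13.11 for Krt8 and 10.58 and 11.80 for Krt18. Without both mutant arrays numbered 1, which hold the array with high Afp, Itga1, Itga6 and Nid1 stayed lower and Itga8 and Itgb5 higher in mutant positive cells, whereas Lamb2 (0.80, adjusted p = 0.0673) and Itga2b (-0.88, adjusted p = 0.0657) lost their calls.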

How the data were processed

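The values analysed are the authors' deposited log2 levels, for which the submitters' processing notes name RMA. Its version and options are not given here. Per the labels, cells were sorted on a BD FACSAria after trypsin, RNA was taken up in trizol, amplified 2 times and labelled with biotin (MessageAmpII-Biotin Enhanced Kit). Of 45101 probe sets, 64 were controls, 34945 had 1 gene symbol in the platform annotation, 932 had several and 9160 had none. Array medians were 6.98 to 7.06. The values were used as given, with no filter on dim probe sets. Precision is set by the 3 arrays in a group, and depth in reads does not apply. The symbols of all 40 genes were found unchanged in RefSeq of GRCm38.p6, whose promoters were used, and 33 genes were never below the 25th percentile of an array.

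The 4 groups were fitted in 1 limma model (limma 3.58.1, R 4.3.3; lmFit, contrasts.fit, eBayes; 8 residual degrees of freedom; two-sided), with Benjamini-Hochberg adjustment over 18193 genes in each of 5 comparisons. Single probe sets were tested the same way, with adjustment over all probe sets of 1 symbol. The fit was tested on simulated data. The genes and lists were chosen with earlier results of these data known, the genes by name alone. Values on every array are given for up to 6 genes per family that passed in at least 1 comparison, those with the largest differences, and up to 3 genes per list, comparison and direction are named by smallest p among those that passed. Whether equal replicate numbers pair a positive with a negative array was checked across genes, as the correlation of deviations from group means. For pairs 1, 2 and 3 it was 0.19, 0.102 and 0.202 (wild types), then 0.554, 0.403 and 0.413 (mutants). Equal numbers thus appear to pair arrays inside a genotype, although no label says so. The fit behind the values of the report has no block, and a fit with this pairing as a block is 1 of the alternatives. Across genotypes they were -0.244 to 0.00145. There were 22 alternatives, among them each of the 12 arrays left out in turn.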

Additional observations from a re-analysis of the deposited data

Results flagged for a closer look

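In 3 of the 40 genes the difference between positive and negative cells differed between the genotypes by the interaction term of limma. For Itga1 the sort difference was 1.93 in wild types and 0.44 in mutants, a difference of -1.49 ± 0.32 log2 (limma, adjusted p = 0.033). For Itga6 it was 0.64 and -0.24, a difference of -0.87 ± 0.17 (adjusted p = 0.0206). For Itga8 it was -0.12 and 1.40, a difference of 1.53 ± 0.28 (adjusted p = 0.015). Over the alternatives the adjusted p was 0.0096 to 0.0895 for Itga1, 0.0151 to 0.104 for Itga6 and 0.00424 to 0.0734 for Itga8, and the direction stayed the same in each. No cause was tested for any of the 3.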

How the results depend on the processing

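Of 33 calls of the 40 genes over the 5 comparisons, 16 held under every alternative, and of 167 values that did not pass, 14 passed under at least 1. The calls that held were Itga1, Lama4, Lamb1, Nid1 and Sparc in the wild-type sort, Itga1, Itga6, Itga8 and Nid1 between positive cells, and Itga8, Itgb1, Itgb8, Lama4, Lamb1, Nid1 and Sparc in the mutant sort. The value that turned was Hspg2 in the wild-type sort, which was 0.56 (limma, adjusted p = 0.00344) with the mean of its probe sets, the dimmer of which was higher in positive cells. Beyond those in the report, the mean of probe sets ended the calls of Fn1 (0.92, adjusted p = 0.0568), Itgb1 (0.32, 0.0506), Itgb3 (0.39, 0.125) and Agrn (-0.32, 0.146) in the wild-type sort, Agrn between positive cells (0.36, 0.0942) and Lamc1 in the mutant sort (0.39, 0.121). A fit of only the groups compared ended those of Fn1 in the mutant sort (0.0501) and Agrn between positive cells (0.14). In the wild-type sort, 10 genes were higher and 1 lower. Without both wild-type arrays numbered 1 these were 6 and 0. The lower gene was also lost (0) with no collapse of probe sets, a trended and robust prior, a fit of only the groups compared or a replicate block across genotypes, and with the replicate block within genotypes 2 were lower. Between positive cells 4 were higher, and 2 without both wild-type arrays numbered 1. For the interaction 1 was larger in mutants, against 2 with the mean of probe sets and 0 without both wild-type or both mutant arrays numbered 1. The 2 that were smaller became 1 with the block across genotypes, 1 without both wild-type arrays numbered 1 and 0 without both mutant arrays numbered 1. Leaving out 1 array gave 7 to 10 higher and 0 to 1 lower in the wild-type sort, 1 to 5 higher and 3 to 5 lower between positive cells, 7 to 10 higher and 1 lower in the mutant sort, and 1 larger and 0 to 3 smaller for the interaction. Between positive cells 1 was higher without mutant positive array 3 and 2 without array 3 of the wild-type or array 1 of the mutant positive cells. For the interaction 0 were smaller without wild-type negative array 1 or 2, and 1 without wild-type positive array 3, wild-type negative array 3, any mutant positive array, or either of mutant negative arrays 2 and 3. The replicate block within genotypes also changed the calls of Lama5, Lama1, Nid2 and Itga2b given in the report and no other call of the 40 genes. Over all genes it moved the lower calls in the wild-type sort from 656 to 1041, the higher calls in the mutant sort from 558 to 872 and the larger interactions from 177 to 378. Fewer arrays or only the groups compared lowered all-gene counts beyond 1.5 times from 843 to 461 (higher) and from 656 to between 299 and 424 (lower) in the wild-type sort, from 769 to between 385 and 505 (higher) between positive cells, from 558 to 350 and 368 (higher) and from 417 to 257 and 275 (lower) in the mutant sort, and from 177 to between 82 and 117 for larger interactions. Lower calls between positive cells went from 681 to 1030 with no collapse of probe sets, and 2 genes were higher in mutant negative cells without mutant negative array 2 (0 otherwise). Where no value shows the cause of a change, the cause was not tested.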

Other observations

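Some of the genes varied widely within a group. Itga4, an integrin alpha chain that binds VCAM1 and fibronectin, had 7.24, 7.83 and 8.68 in mutant positive cells (SD 0.72), against 7.93, 7.89 and 7.95 in wild-type positive cells (SD 0.03). A dimmer probe set of Itga4 had the opposite order in mutant positive cells, 7.73, 6.81 and 5.99. Lama2 had 7.69, 6.88 and 6.47 in wild-type positive cells (SD 0.62) and 0.10 to 0.32 as SD in the other groups. Itgav had 10.83, 11.24 and 10.15 in mutant negative cells (SD 0.55).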
